A study of Danio rerio with 12 samples.

Results

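The genes described here encode the receptors for GABA and glycine, the transmitters of inhibitory synapses. They were taken as the genes whose platform symbol begins with gabr and a further letter, gabbr, glra and a digit, or glrb, each read from a probe set with a single gene symbol, the brightest where a gene had several. This gave 28 genes of 19260 named genes on the array: 6 GABA-A alpha, 3 beta and 2 gamma subunits, gabrd, gabrp and gabrz, 4 rho subunits, 3 GABA-B subunits, and 5 alpha and 2 beta subunits of the glycine receptor. Total RNA of whole zebrafish eyes had been hybridised to 12 Affymetrix arrays, 1 pool of eyes per array. The 4 groups of 3 pools were eyes of mmachc mutants (homozygous in the titles) and of mmachc heterozygotes at 7 days post fertilization (dpf), and mutant and heterozygous eyes at 28 dpf. The heterozygotes that serve as controls carry 1 mutant allele, and no wild-type eyes are in the comparison. The kind of mutation, the number of fish in a pool and any shared clutch are not stated in the labels, and p-values therefore measure only the spread between these pools, which may be technical.

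The mmachc product processes cobalamin, vitamin B12, inside the cell. GABA-A and glycine receptors are ring-shaped chloride channels built of related subunits, mostly of alpha with beta and gamma or delta in the GABA-A receptors and of alpha with beta in the glycine receptors. The rho subunits assemble with each other into GABA receptors with slow, sustained currents and are known above all from the retina, where mammalian bipolar cell terminals carry them. GABA-B receptors are coupled to G proteins and need both of their subunit types. In the retina horizontal cells and many amacrine cells release GABA, and other amacrine cells release glycine.

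Values are log2 intensities from RMA, a method that corrects background, equalises the arrays and summarises the probes of a probe set. Each difference below is on that scale with its standard error (SE). The SE comes from 1 limma fit to all 12 arrays. There a gene's spread is shared over the 4 groups and moved toward that of genes of like level. A gene's genotype differences thus have the same SE at both ages, whatever the spread of its pools at either. A probe set's brightness depends on its probes, so levels are compared within a gene only. The arrays held 75212 probe sets, and pools of 1 group had correlations of 0.988 to 0.994 with each other across genes. The median SE of a genotype difference was 0.08. Signal over background was not measured, and dim genes were left out: at least 3 of the 12 arrays had to read a gene brighter than their 33rd percentile. This kept 14002 genes and 26 of the 28 receptor genes. The 26 exceeded it on all 12 arrays. As a check of the tissue, all matched markers of cones (15), rods (11) and lens (12) passed the same filter. This is a weak check, since 14002 of the 19260 named genes and 8 of 12 skeletal muscle markers passed as well.

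At 7 dpf the rho subunits moved in opposite directions in mutant eyes: gabrr1 was 2.03-fold and gabrr2a 1.51-fold lower than in heterozygous eyes, and gabrr3a was 2.18-fold higher. The alpha subunit genes gabra4 and gabra6a, the delta subunit gene gabrd and the glycine receptor genes glra3, glrba and glrbb fell as well, and gabra2b and gabra3 rose. In whole eyes, fewer cells of a type and less RNA per cell cannot be told apart. In all, 3 of the 26 tested genes rose and 8 fell (limma adjusted p under 0.05). These 42.3% compare with 12.4% of all genes tested, and by direction 11.5% rose against 4.05% of all genes and 30.8% fell against 8.40%. The median difference of the 26 was -0.09, against -0.03 over all genes. The 3 mutant arrays lay wholly above the 3 heterozygous arrays in 5 of the genes (11.8% of all genes did so) and wholly below in 12 (18.6% of all genes), and 30.4% of all genes had no overlap in either direction.

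At 28 dpf the direction was mostly upward in mutant eyes. All 3 tested rho subunits rose, together with 3 glycine receptor alpha subunits led by glra4b (1.80-fold higher), gabrz, gabbr2 and several GABA-A alpha, beta and gamma subunits. The glycine receptor beta gene glrbb (1.46-fold lower), gabra6a and gabrg1 fell. Of the 26 genes 13 rose, 50% against 21.8% of all genes, and 3 fell, 11.5% against 39.0% of all genes. Together 61.5% passed the test, close to the 60.8% of all genes. Their median was 0.17 against -0.09 over all genes, and 21 of the 26 differences were positive. Mutant arrays lay wholly above the heterozygous ones in 13 genes (23.6% of all genes) and wholly below in 3 (40.8% of all genes), where 64.4% of all genes had no overlap in either direction.

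These counts at 28 dpf rest on the scaling of the arrays. Centring each array on the median of its named probe sets raised every genotype difference at 28 dpf by 0.20, so that 21 receptor genes rose and 1 fell, with a receptor gene median of 0.37 against 0.11 over all genes. On that scale 41.7% of all genes rose and 23.5% fell, and falls made up 36.0% of all calls against 64.2% before. The falls of gabra6a (-0.07, adjusted p = 0.255) and gabrg1 (-0.02, adjusted p = 0.82) were lost there and that of glrbb stayed (-0.34, adjusted p = 0.000198).

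**Figure D1:**
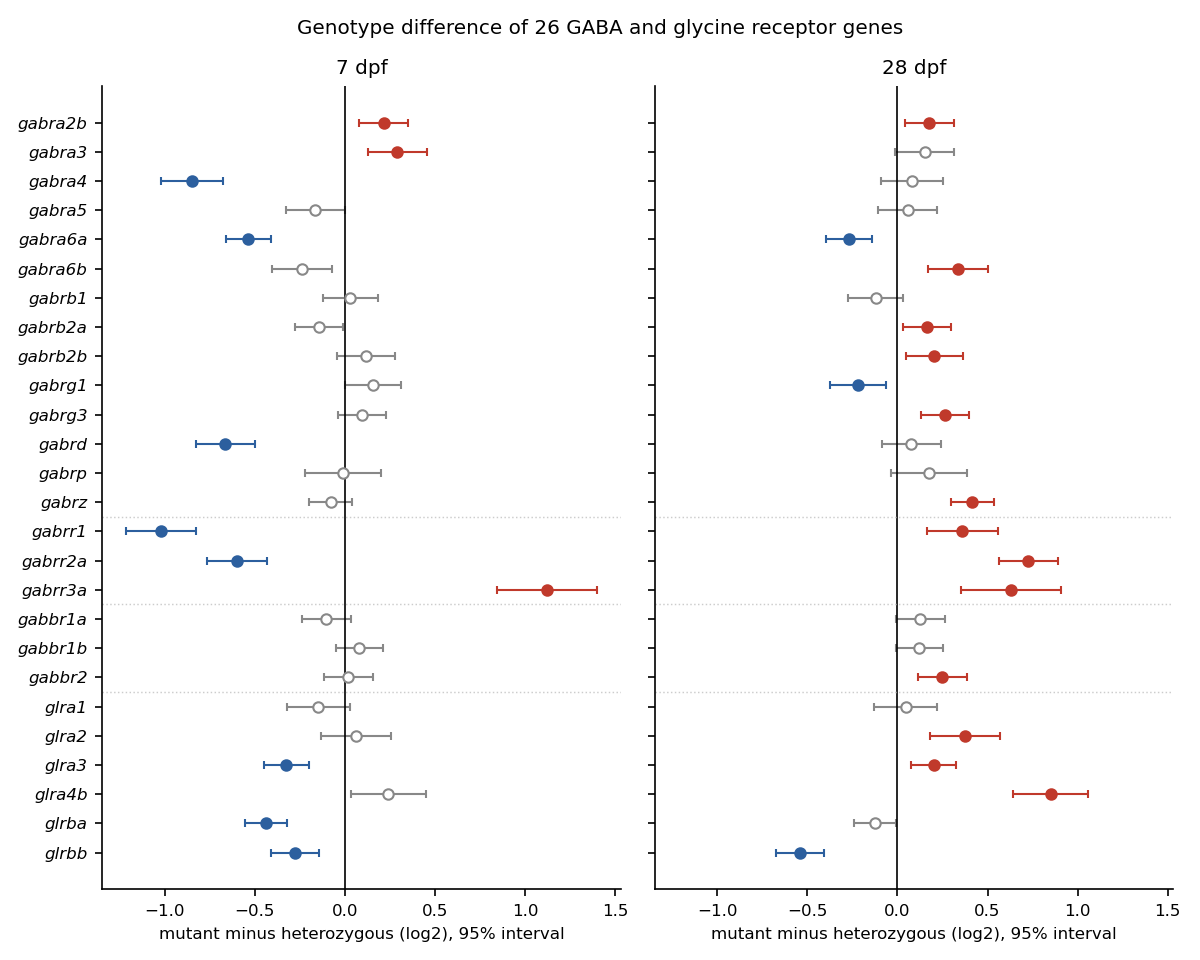
Differences between mutant and heterozygous eyes at 7 dpf and 28 dpf for the 26 tested receptor genes, in log2 units on the horizontal axis with 95% intervals (limma, 3 pools a group). Filled points passed the test at an adjusted p under 0.05 (red higher, blue lower in mutants) and open points did not; dotted lines set the rho and the GABA-B genes apart. At 7 dpf 8 genes fell and 3 rose, and at 28 dpf 13 rose and 3 fell.

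Among the rho subunits, gabrr1 measured 8.33, 8.12 and 8.38 in the 3 mutant pools at 7 dpf, against 9.33, 9.32 and 9.25 in the heterozygous pools. At 28 dpf it measured 9.25, 8.93 and 8.85 in mutant pools, against 8.74, 8.61 and 8.61 in heterozygous pools. The mutant pools were thus all below the heterozygous ones at the early age and all above at the later age. The differences were -1.02 ± 0.09 (adjusted p = 2.09e-06) and 0.36 ± 0.09 (adjusted p = 0.00305), with n = 3 against 3 and the SE shared by both ages. Without mutant replicate 1 at 28 dpf, the highest pool, the later difference was 0.24 (adjusted p = 0.0181).

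The second rho gene, gabrr2a, had the same pattern, with 8.87, 8.67 and 8.90 in mutant pools at 7 dpf, against 9.35, 9.55 and 9.34 in heterozygous pools. At 28 dpf the mutant pools measured 9.52, 9.38 and 9.43, against 8.77, 8.79 and 8.59 in heterozygous pools. Neither age had an overlap between the genotypes, and the order turned round between them. The differences were -0.60 ± 0.08 (adjusted p = 6.94e-05) and 0.73 ± 0.08 (adjusted p = 1.06e-06). A further gabrr2a probe set, with a mean of 4.47 over the arrays, did not pass the filter, and averaging over both probe sets gave -0.35 at 7 dpf (adjusted p = 0.00887), with an interaction of 0.84 and an age difference of 0.37 in mutants.

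By contrast gabrr3a was higher in the mutants at both ages. It measured 9.82, 9.77 and 9.93 in mutant pools at 7 dpf, against 8.77, 8.55 and 8.83 in heterozygous pools. The values at 28 dpf were 9.07, 9.46 and 9.63 in mutant pools, against 8.48, 8.80 and 8.99 in heterozygous pools, a wider spread within each genotype than at 7 dpf but without overlap. The differences were 1.12 ± 0.13 (adjusted p = 2.63e-05) and 0.63 ± 0.13 (adjusted p = 0.000603). The shared SE does not show the wider spread at 28 dpf. There the SD was 0.29 in mutant and 0.26 in heterozygous pools, against 0.08 and 0.15 at 7 dpf.

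The remaining rho gene, gabrr2b, lay below the 33rd percentile on all 12 arrays and was not tested. Its probe set read 5.54, 5.16 and 5.25 in mutant pools at 7 dpf, against 5.69, 5.86 and 5.59 in heterozygous pools, and 5.07, 5.27 and 5.07 in mutant pools at 28 dpf, against 4.82, 5.02 and 5.06 in heterozygous pools. With no filter its difference at 7 dpf was -0.40 ± 0.12 (adjusted p = 0.0531 over 19260 genes) and that at 28 dpf 0.17 ± 0.12 (adjusted p = 0.269). In the same fit its interaction was 0.56 ± 0.17 (adjusted p = 0.0165), and its age difference was -0.18 ± 0.12 in mutants (adjusted p = 0.221) and -0.75 ± 0.12 in heterozygotes (adjusted p = 0.00015), at levels below the filter in every pool. Whether transcripts of related subunits share probes was not tested for any gene here.

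**Figure D2:**
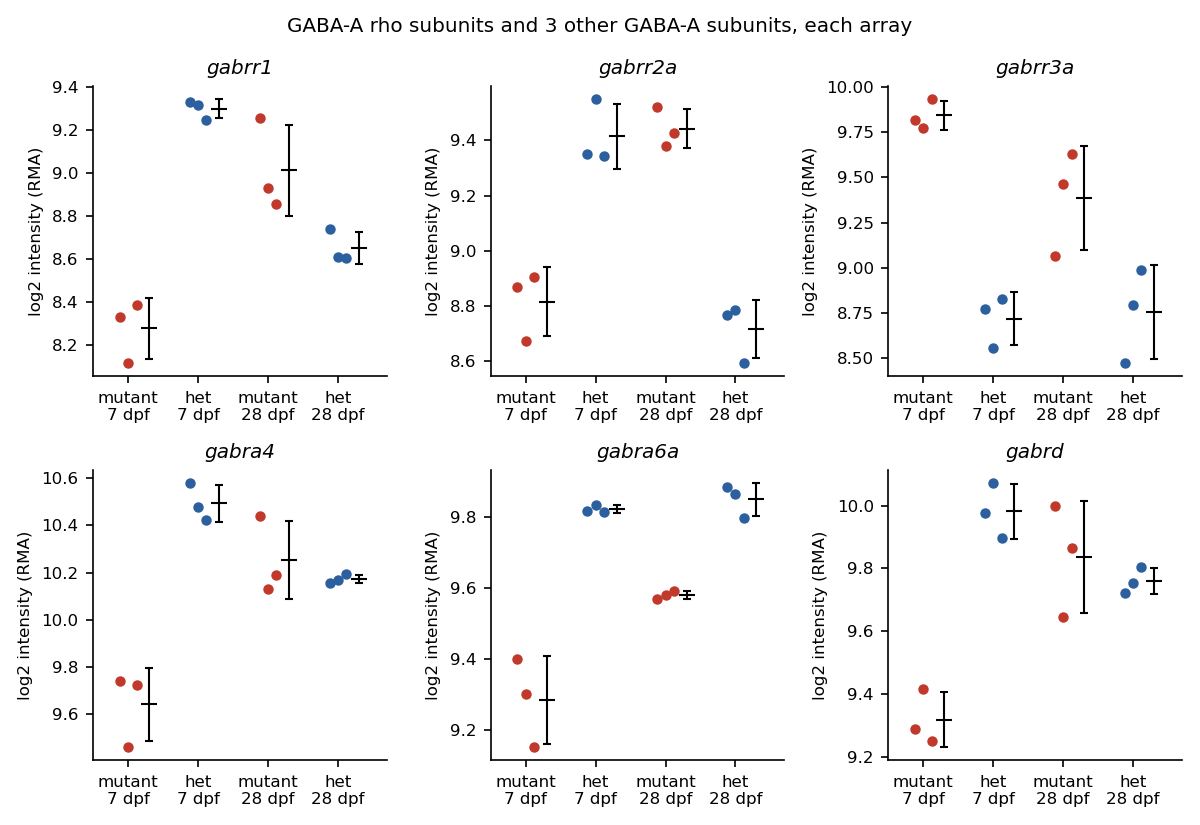
Log2 intensities of gabrr1, gabrr2a, gabrr3a, gabra4, gabra6a and gabrd in every pool, with mutant pools in red and heterozygous (het) pools in blue, first at 7 and then at 28 dpf. Points are arrays, black marks are mean ± SD (n = 3), and each panel has its own vertical axis; gabrr1 and gabrr2a are lower in mutants at 7 dpf and higher at 28 dpf.

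The alpha subunits, which with the beta subunits form the GABA binding site, did not move together. For gabra4 the mutant pools at 7 dpf read 9.74, 9.46 and 9.72, against 10.58, 10.48 and 10.42 in heterozygous pools. At 28 dpf they read 10.44, 10.13 and 10.19, against 10.16, 10.17 and 10.19 in heterozygous pools. The genotypes were apart at 7 dpf and overlapped at 28 dpf. The differences were -0.85 ± 0.08 (adjusted p = 3.9e-06) and 0.08 ± 0.08 (adjusted p = 0.395, 95% interval -0.09 to 0.26), the later one called only after centring (0.28, adjusted p = 0.00856).

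In mammals alpha4 and alpha6 join with delta in receptors outside the synapse, and gabrd and gabra6a were lower in mutants at 7 dpf too. Delta subunit gabrd read 9.29, 9.42 and 9.25 in mutant pools, against 9.98, 10.07 and 9.90 in heterozygous pools, a difference of -0.66 ± 0.08 (adjusted p = 2.67e-05). At 28 dpf its genotypes overlapped, with 10.00, 9.65 and 9.86 in mutant pools, against 9.72, 9.75 and 9.80 in heterozygous pools (0.08 ± 0.08, adjusted p = 0.407, 95% interval -0.09 to 0.24). As with gabra4, the later difference was called after centring (0.27, adjusted p = 0.00548), and also without mutant replicate 2 (0.17, adjusted p = 0.048).

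For gabra6a, whose mammalian counterpart is typical of cerebellar granule cells, mutant pools read 9.40, 9.30 and 9.15 at 7 dpf, against 9.82, 9.83 and 9.81 in heterozygous pools. They read 9.57, 9.58 and 9.59 at 28 dpf, against 9.88, 9.86 and 9.80 in heterozygous pools. Mutants were below heterozygotes in every pool of both ages, by -0.54 ± 0.06 (adjusted p = 1.66e-05) and -0.27 ± 0.06 (adjusted p = 0.00098). Its paralog gabra6b measured 8.46, 8.52 and 8.67 in mutant pools at 7 dpf, against 8.64, 8.87 and 8.87 in heterozygous pools (-0.24 ± 0.08, adjusted p = 0.0612). The gene was called lower at this age in 4 of 15 alternatives. These were array weights (adjusted p = 0.0052), the stricter filter (0.0496), and leaving out mutant replicate 3 (0.0347) or heterozygous replicate 1 (0.0226). At 28 dpf it measured 8.98, 8.72 and 8.83 in mutant pools, against 8.50, 8.51 and 8.51 in heterozygous pools, and rose by 0.34 ± 0.08 (adjusted p = 0.00171). The 6a and 6b copies therefore had called differences of opposite sign at 28 dpf, of which that of gabra6a was lost after centring.

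The alpha subunit genes gabra2b and gabra3 were called higher in mutants at 7 dpf, with small differences. For gabra2b the mutant pools read 9.69, 9.56 and 9.71 at 7 dpf, against 9.51, 9.36 and 9.44 in heterozygous pools, and 9.29, 9.18 and 9.33 at 28 dpf, against 9.02, 9.09 and 9.16 in heterozygous pools. The differences were 0.22 ± 0.06 (adjusted p = 0.0356) and 0.18 ± 0.06 (adjusted p = 0.0263). For gabra3 the values were 9.01, 9.13 and 9.11 in mutant pools at 7 dpf, against 8.96, 8.75 and 8.67 in heterozygous pools (0.29 ± 0.08, adjusted p = 0.02), and 9.03, 9.07 and 9.17 in mutant pools at 28 dpf, against 8.83, 8.94 and 9.05 in heterozygous pools (0.15 ± 0.08, adjusted p = 0.103). Neither gene's genotypes overlapped at 7 dpf, yet both calls at that age were lost without mutant replicate 3 (adjusted p = 0.123 and 0.0628), without heterozygous replicate 2 (0.165 and 0.0834) or without heterozygous replicate 3 (0.0854 and 0.101). That of gabra2b was also lost without mutant replicate 1 (adjusted p = 0.0934) and that of gabra3 without mutant replicate 2 (adjusted p = 0.0772). At 28 dpf the call of gabra2b was lost without mutant replicate 1 or 3 (adjusted p = 0.0675 and 0.102) or heterozygous replicate 1 or 2 (0.105 and 0.0597). The sixth alpha gene, gabra5, was not called at either age (-0.16 ± 0.08, adjusted p = 0.195, and 0.06 ± 0.08, adjusted p = 0.538). After centring, the differences at 28 dpf of gabra5 (0.25, adjusted p = 0.00649) and gabra3 (0.35, adjusted p = 0.000738) were called. That of gabra3 was called as well without heterozygous replicate 3 (0.20, adjusted p = 0.0492).

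None of the beta and gamma subunits passed the test at 7 dpf, where their 5 differences ran from -0.14 (gabrb2a) to 0.16 (gabrg1), with unadjusted p under 0.05 for these 2 genes (0.0378 and 0.0474). At 28 dpf gabrb2a rose by 0.16 ± 0.06 (adjusted p = 0.0327), gabrb2b by 0.21 ± 0.08 (adjusted p = 0.0274) and the gamma gene gabrg3 by 0.26 ± 0.06 (adjusted p = 0.00194). The pools of gabrg3 read 8.45, 8.31 and 8.26 in mutants, against 8.04, 8.08 and 8.11 in heterozygotes, with no overlap. The other gamma gene, gabrg1, fell, with 7.66, 7.50 and 7.53 in mutant pools, against 7.87, 7.82 and 7.65 in heterozygous pools, which overlap (-0.22 ± 0.07, adjusted p = 0.016). At 7 dpf its mutant pools, at 7.63, 7.60 and 7.61, had been above the heterozygous ones, at 7.50, 7.43 and 7.45. The calls of gabrb2a and gabrg1 at 28 dpf were lost when heterozygous replicate 1 was left out (adjusted p = 0.158 and 0.0796), and that of gabrb2b without heterozygous replicate 2 (adjusted p = 0.126). They were lost as well without mutant replicate 1 for gabrb2a and gabrb2b (adjusted p = 0.0632 and 0.0946) and without mutant replicate 2 for gabrb2a and gabrg1 (0.0763 and 0.0579). Leaving out heterozygous replicate 3 ended that of gabrb2a (0.0707), and heterozygous replicate 2 that of gabrg1 (0.056). The gabrb2a call was also lost when only the arrays of that age were fitted (adjusted p = 0.0592). A further gabrb2a probe set, with a mean of 3.07 over the arrays, did not pass the filter, nor did the average of both. The beta gene gabrb1 was not called (0.03 ± 0.07 and -0.12 ± 0.07, the difference at 28 dpf being 0.08 after centring).

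The zeta subunit gene gabrz, which joined the rises at 28 dpf, read 9.96, 10.06 and 10.11 in mutant pools of that age, against 9.60, 9.63 and 9.66 in heterozygous pools. This is a difference of 0.42 ± 0.06 (adjusted p = 1.1e-05) with a narrow spread in both genotypes. At 7 dpf its pools read 9.96, 9.81 and 9.98 in mutants, against 10.00, 10.01 and 9.98 in heterozygotes (-0.08 ± 0.06, adjusted p = 0.43, 95% interval -0.20 to 0.04). The pi subunit gene gabrp, found mainly outside the nervous system in mammals, was not called at either age (-0.01 ± 0.10 and 0.18 ± 0.10, adjusted p = 0.968 and 0.142). Its difference at 28 dpf was called after centring (0.37, adjusted p = 0.00226) and without mutant replicate 3 (0.27, adjusted p = 0.0308).

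GABA-B subunits differed less. At 7 dpf the 3 differences lay between -0.11 (gabbr1a) and 0.08 (gabbr1b), and limma called 0 of them (0 at an unadjusted p under 0.05). At 28 dpf gabbr2, the subunit that couples to the G protein, read 8.97, 9.23 and 9.18 in mutant pools, against 8.84, 8.88 and 8.91 in heterozygous pools. All mutant pools were higher, by 0.25 ± 0.06 (adjusted p = 0.00327), while at 7 dpf they read 9.10, 9.04 and 9.02, against 9.04, 9.03 and 9.03 in heterozygous pools (0.02 ± 0.06). The GABA-binding partners gabbr1a and gabbr1b differed by 0.13 ± 0.06 and 0.12 ± 0.06 at 28 dpf (adjusted p = 0.0968 and 0.102), and were called after centring (0.32 each, adjusted p = 0.000558 and 0.000324).

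Of the 4 tested glycine receptor alpha genes 3 rose at 28 dpf, and of the 2 beta genes glrbb fell. For glra4b the mutant pools of that age read 8.35, 8.73 and 8.44, against 7.50, 7.67 and 7.81 in heterozygous pools. This rise of 0.85 ± 0.10 (adjusted p = 2.3e-06) was the greatest among the 26 genes at 28 dpf. At 7 dpf mutant pools read 8.19, 8.08 and 8.12, against 8.02, 7.85 and 7.80 in heterozygous pools, which did not overlap but did not pass the test (0.24 ± 0.10, adjusted p = 0.133).

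The alpha gene glra2 measured 8.27, 8.05 and 8.01 in mutant pools at 28 dpf, against 7.61, 7.80 and 7.80 in heterozygous pools, and rose by 0.38 ± 0.09 (adjusted p = 0.00221). At 7 dpf the genotypes overlapped, with 8.35, 8.30 and 8.13 in mutant pools, against 8.17, 8.07 and 8.35 in heterozygous pools (0.06 ± 0.09, adjusted p = 0.741). A second probe set of glra2 gave 0.42 at 28 dpf (adjusted p = 0.000505 over all named probe sets) and -0.04 at 7 dpf. For glra3 the mutant pools read 8.93, 8.84 and 8.95 at 7 dpf, against 9.17, 9.28 and 9.25 in heterozygous pools (-0.33 ± 0.06, adjusted p = 0.00117). They read 9.05, 8.99 and 8.95 at 28 dpf, against 8.86, 8.74 and 8.79 in heterozygous pools (0.20 ± 0.06, adjusted p = 0.00744). Like gabrr1 and gabrr2a, glra3 was thus below the heterozygous pools at 7 dpf and above them at 28 dpf, with no overlap at either age.

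The alpha1 gene glra1, whose human counterpart is mutated in startle disease, was not called at either age (-0.15 ± 0.08 and 0.05 ± 0.08, adjusted p = 0.286 and 0.645). After centring its difference at 28 dpf was called (0.24, adjusted p = 0.018). The dim glra4a exceeded the 33rd percentile on 2 of 12 arrays and was not tested. Its pools overlapped at both ages, with 6.21, 5.90 and 5.99 in mutants at 7 dpf, against 5.89, 5.78 and 6.10 in heterozygotes, and 6.18, 6.10 and 6.09 in mutants at 28 dpf, against 6.14, 6.12 and 5.92 in heterozygotes.

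The beta subunit anchors the glycine receptor to the scaffold protein gephyrin, and both of its genes were lower in mutants at 7 dpf. The pools of glrba read 8.90, 8.91 and 8.82 in mutants at 7 dpf, against 9.32, 9.33 and 9.30 in heterozygotes (-0.44 ± 0.05, adjusted p = 4.73e-05). At 28 dpf they read 9.51, 9.50 and 9.46 in mutants, against 9.63, 9.69 and 9.53 in heterozygotes (-0.13 ± 0.05, adjusted p = 0.0579), a smaller difference still without overlap. The difference at 28 dpf passed the test with the replicate number as a block (adjusted p = 0.0469), with array weights (0.0438) and without heterozygous replicate 3 (0.0225), and in none of the other 12 alternatives. After centring it turned positive (0.07, adjusted p = 0.24).

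The other beta gene, glrbb, which is mutated in the zebrafish motor mutant bandoneon, read 10.16, 10.05 and 10.03 in mutant pools at 7 dpf, against 10.36, 10.35 and 10.35 in heterozygous pools. At 28 dpf its mutant pools read 9.71, 9.55 and 9.48, against 10.21, 10.10 and 10.06 in heterozygous pools. Mutants were below heterozygotes in every pool of both ages, by -0.28 ± 0.06 (adjusted p = 0.00775) and -0.54 ± 0.06 (adjusted p = 2.47e-06).

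**Figure D3:**
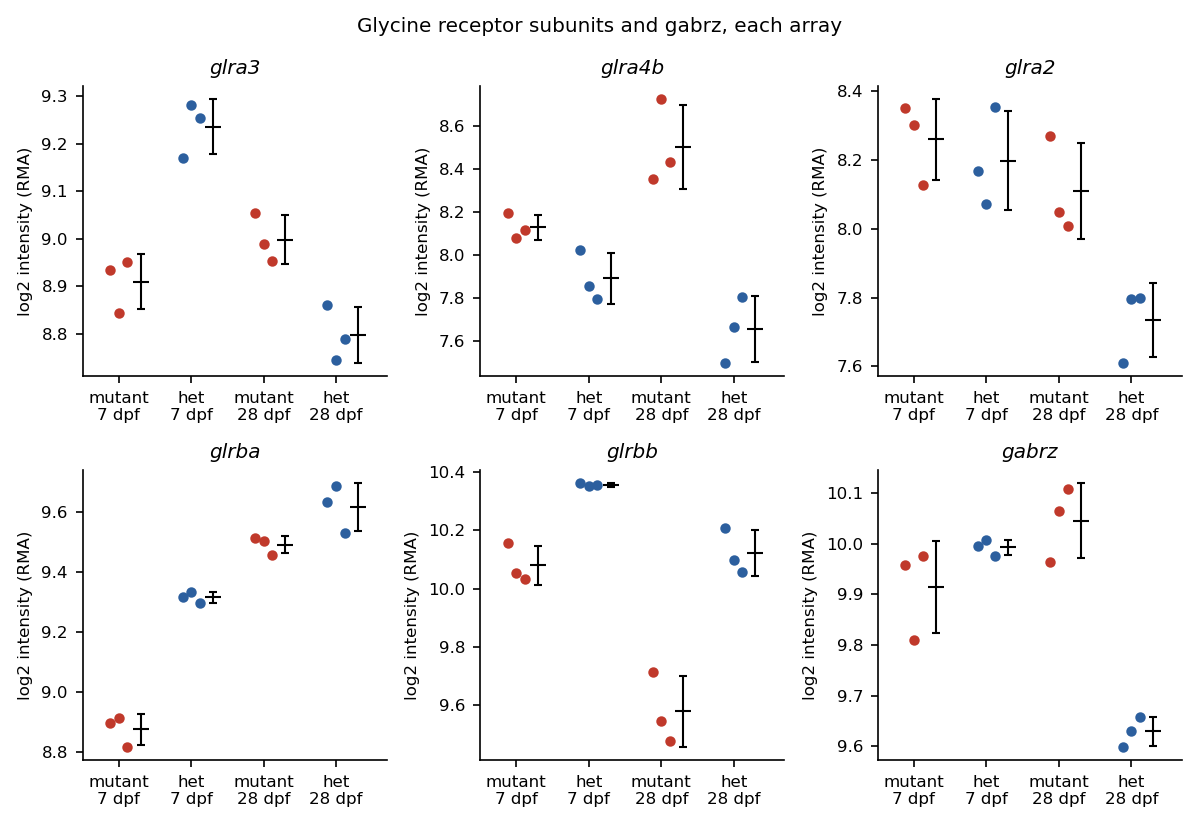
Log2 intensities of glra3, glra4b, glra2, glrba, glrbb and gabrz in every pool, mutant pools in red and heterozygous (het) pools in blue, at 7 and then at 28 dpf. Points are arrays, black marks are mean ± SD (n = 3), and vertical axes differ between panels; glra4b, glra2 and gabrz are higher and glrbb is lower in mutants at 28 dpf.

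Whether the genotype difference itself depended on age was tested as an interaction, the difference at 28 dpf minus that at 7 dpf. It was positive and past the threshold in 13 of the 26 genes and negative in 3, which is 50% and 11.5%, against 18.1% and 29.1% of all genes (61.5% against 47.2% in either direction). After centring, the counts were 18 and 0, against 32.6% and 17.8% of all genes, each interaction being raised by 0.17. The rho genes gabrr1 (1.38 ± 0.13, adjusted p = 1.06e-06) and gabrr2a (1.33 ± 0.11, adjusted p = 3.61e-07) led, followed by gabra4 (0.93 ± 0.12) and gabrd (0.74 ± 0.11). The interaction of gabrr3a was negative (-0.49 ± 0.19, adjusted p = 0.0395) and lost its call after centring (-0.32, adjusted p = 0.157). That of glra2 depended on the probe set, the scaling and single arrays. It was not called from the probe set used (0.31 ± 0.13, adjusted p = 0.0575). From that probe set it was called after centring (0.48, adjusted p = 0.00502) and without mutant replicate 3 at 28 dpf (adjusted p = 0.0412). It was also called without mutant replicate 1 or heterozygous replicate 2 at 7 dpf (adjusted p = 0.0469 and 0.0351). From the second probe set it was 0.46 (adjusted p = 0.00532) and from the mean of both 0.39 (adjusted p = 0.00783). Of the genes called at 7 dpf, 3 fell there and rose at 28 dpf (gabrr1, gabrr2a and glra3), 2 fell at both ages (gabra6a and glrbb) and 2 rose at both (gabra2b and gabrr3a).

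The comparison of ages asked how the receptor genes differed between juvenile and larval eyes of each genotype. In mutant eyes 11 of the 26 genes were higher at 28 than at 7 dpf and 5 were lower (42.3% and 19.2%, against 26.0% and 37.9% of all genes). In either direction 61.5% of the 26 passed the test in mutant eyes, close to the 63.9% of all genes. In heterozygous eyes 2 were higher and 14 lower (7.69% and 53.8%, against 20.9% and 22.1% of all genes). The share in either direction was 61.5% there, against 43.0% of all genes. The pools of the 2 ages did not overlap in mutant eyes for 12 genes higher and 5 lower at 28 dpf, against 27.5% and 38.2% of all genes (65.7% in either direction). In heterozygous eyes this held for 4 higher and 15 lower, against 27.0% and 29.2% of all genes (56.3% in either direction). The medians were 0.08 in mutant eyes, against -0.06 over all genes, and -0.23 in heterozygous eyes, against -0.02 over all genes. After centring 15 rose and 4 fell in mutant eyes, where 39.3% of all genes rose and 27.3% fell on that scale. In heterozygous eyes 2 rose and 16 fell after centring, where 18.4% of all genes rose and 27% fell. The age and genotype comparisons share arrays and are not independent of each other.

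With age, gabrr1 differed by 0.73 ± 0.09 in mutant eyes (adjusted p = 4.21e-06) and by -0.65 ± 0.09 in heterozygous eyes (adjusted p = 3.58e-05). The gene gabrr2a differed by 0.63 ± 0.08 in mutants (adjusted p = 3.75e-06) and -0.70 ± 0.08 in heterozygotes (adjusted p = 2.8e-06). The genes gabra4, gabrd and gabra6b were also higher with age in mutants and lower with age in heterozygotes, at 0.61 and -0.32 for gabra4, 0.52 and -0.22 for gabrd, and 0.29 and -0.28 for gabra6b. The call of gabrd in heterozygous eyes was lost without replicate 1 or 2 of either age (adjusted p = 0.0634 to 0.127).

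Other genes had called age differences of the same sign in both genotypes. The beta genes of the glycine receptor diverged in this way: glrba was higher at 28 dpf by 0.62 ± 0.05 in mutants and 0.30 ± 0.05 in heterozygotes, and glrbb was lower by -0.50 ± 0.06 in mutants and -0.23 ± 0.06 in heterozygotes. Lower at 28 dpf in both genotypes were also gabra2b (-0.39 and -0.35), gabrg3 (-0.32 and -0.49) and gabrb2b (-0.25 and -0.33, the call in mutants being lost after centring with adjusted p = 0.246). The gene gabrr3a was lower at 28 dpf in mutants (-0.46 ± 0.13, adjusted p = 0.00636) and differed by 0.03 ± 0.13 in heterozygotes (95% interval -0.24 to 0.31). Without mutant replicate 1 at 28 dpf the difference in mutants was -0.30 (adjusted p = 0.044). Called in mutants alone were rises of gabrb2a (0.44), glra4b (0.38), gabra6a (0.29), glra1 (0.24) and gabra5 (0.23). The rise of gabra5 was lost without mutant replicate 3 of either age (adjusted p = 0.0544 and 0.0545), and that of glra1 without mutant replicate 2 at 7 dpf (0.101) or mutant replicate 1 at 28 dpf (0.092). Called in heterozygotes alone were falls of glra2 (-0.46), glra3 (-0.44), gabrz (-0.36), gabrp (-0.34) and gabbr1a (-0.18) and a rise of gabrg1 (0.32), and whether these differ between genotypes is what the interaction tests. The heterozygous fall of gabbr1a was lost without any 1 of 5 of the 6 pools (adjusted p = 0.0673 to 0.112), all but replicate 1 at 28 dpf, and that of gabrp without replicate 1 of either age (0.0506 and 0.0651).

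**Figure D4:**
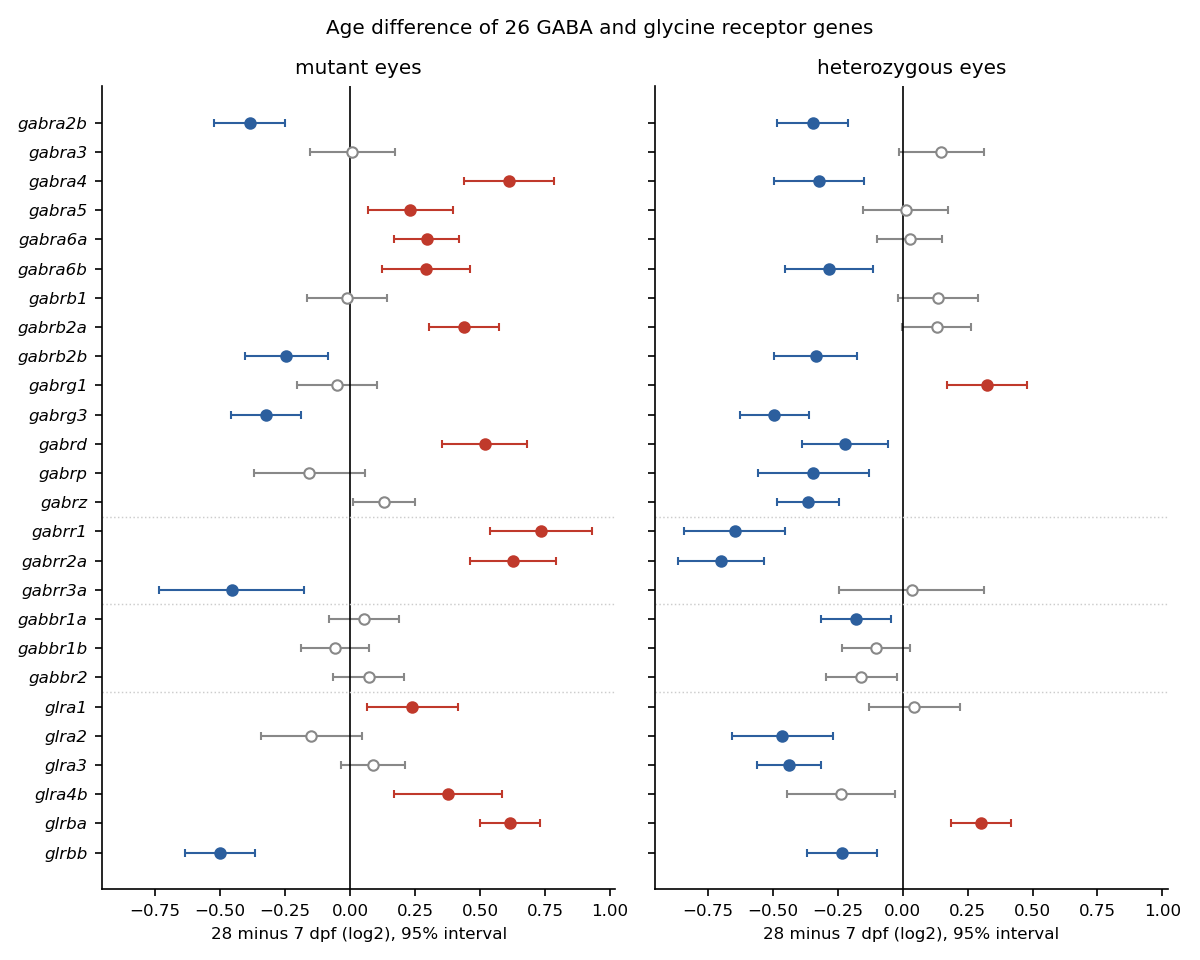
Differences between 28 and 7 dpf in mutant and in heterozygous eyes for the 26 tested receptor genes, in log2 units on the horizontal axis with 95% intervals (limma, 3 pools a group). Red points passed the test as higher and blue as lower at 28 dpf, open points did not pass, and dotted lines set the rho and GABA-B genes apart; 11 genes rose and 5 fell in mutants, while 2 rose and 14 fell in heterozygotes.

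Several receptor genes lie next to each other on a chromosome, as GABA-A clusters do in vertebrates. In the RefSeq table of assembly GRCz12tu, used for gene order only, 5 pairs had 0 protein-coding genes between them, and gabra6b and gabrb2b had 1. At 7 dpf the difference of gabra4 was -0.85 beside 0.22 for its neighbour gabra2b, and that of gabra6a -0.54 beside -0.14 for gabrb2a. At 28 dpf gabra6a was at -0.27 beside gabrb2a at 0.16, and gabra4 at 0.08 beside gabra2b at 0.18. The pair gabrg1 and gabrb1 was at 0.16 and 0.03 at 7 dpf and at -0.22 and -0.12 at 28 dpf. For gabrg3 and gabra5 the values were 0.09 and -0.16, then 0.26 and 0.06. For gabra6b and gabrb2b they were -0.24 and 0.12, then 0.34 and 0.21. The fifth pair, gabrr1 and gabrr2b, includes the dim gene that was not tested. Its differences with no filter were -0.40 and 0.17, beside -1.02 and 0.36 for gabrr1.

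Other genes of inhibitory transmission were counted from a list of 46, of which 39 were matched and tested. At 7 dpf 1 rose and 4 fell, a share near the 12.4% of all genes that were called. The GABA transporter gene slc6a13 was lower in mutants by -0.61 ± 0.10 (adjusted p = 0.000689) and arhgef9a, whose product collybistin brings gephyrin to the membrane, by -0.51 ± 0.06 (adjusted p = 3.16e-05). The others were trak2, of a family of motor adaptors (-0.34), the GABA-B auxiliary subunit gene kctd16b (-0.33, adjusted p = 0.048), and shisa7b, of a family with an auxiliary GABA-A subunit in mice (0.26).

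At 28 dpf 14 of these 39 genes rose and 7 fell, with a median of 0.05, where 21.8% of all genes rose and 39.0% fell with a median of -0.09. The counts of this list were not repeated after centring, which raised every genotype difference at 28 dpf by 0.20. The genes slc6a13 and arhgef9a were now higher in mutants, with slc6a13 at 8.71, 8.66 and 8.85 in mutant pools, against 8.32, 8.22 and 7.91 in heterozygous pools (0.59 ± 0.10, adjusted p = 0.000135). For arhgef9a the pools read 9.17, 9.04 and 9.14 in mutants, against 8.63, 8.71 and 8.60 in heterozygotes (0.47 ± 0.06, adjusted p = 7.95e-06). Both were below the heterozygous pools at 7 dpf and above them at 28 dpf, as gabrr1, gabrr2a and glra3 were. Their interactions were 1.21 ± 0.15 and 0.98 ± 0.09 (adjusted p = 9.2e-06 and 5.51e-07).

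The GABA transporter genes slc6a11a and slc6a11b differed in sign at 28 dpf (-0.92 ± 0.13, adjusted p = 1.51e-05, and 0.57 ± 0.06, adjusted p = 1.92e-06). Falls were also seen in aldh5a1, which completes GABA breakdown (-0.75 ± 0.10), the palmitoyltransferase gene zdhhc3a (-0.70 ± 0.09) and the neuronal glycine transporter gene slc6a5 (-0.68 ± 0.16). The dim slc6a5 read 6.19, 5.46 and 5.96 in mutant pools at 28 dpf, against 6.74, 6.66 and 6.25 in heterozygous pools. The 33rd percentile of the arrays lay between 6.14 and 6.26, and all pools at 7 dpf were below it. This gene thus passed the filter mainly through heterozygous pools at 28 dpf, and its fall, among those counted above, is not independent of the filter. Of the GABA-synthesising enzymes gad2 fell by 0.32 at 28 dpf (adjusted p = 3.57e-05), while gad1a and gad1b were not called (adjusted p = 0.982 and 0.945). The vesicular transporter gene slc32a1, which loads GABA and glycine, differed by -0.05 at 7 dpf and -0.09 at 28 dpf (adjusted p = 0.693 and 0.234).

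Markers of retinal cell types were counted in the same comparisons, in which 4.05% of all genes were higher and 8.40% lower at 7 dpf, and 21.8% higher and 39.0% lower at 28 dpf. Of 16 bipolar cell markers 1 was higher and 3 lower in mutants at 7 dpf, and 9 were higher and 2 lower at 28 dpf. The mean log2 level of that list ran from 9.47 to 9.52 in mutant pools at 7 dpf, against 9.59 to 9.61 in heterozygous pools, and from 9.71 to 9.73 in mutant pools at 28 dpf, against 9.50 to 9.54 in heterozygous pools. The list's median difference at 7 dpf was -0.05, against -0.03 over all genes. The calcium-binding protein genes cabp5b (-0.90) and cabp5a (-0.45) were the lowest of the list at that age, and grm6b, of the glutamate receptor of ON bipolar cells, was higher (0.31). These 3 were chosen after their values were seen. At 28 dpf the median was 0.16, against -0.09 over all genes.

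Of 13 tested ganglion cell markers 8 were higher and 0 lower in mutants at 28 dpf, with list means of 8.47 to 8.50 in mutant pools, against 8.29 to 8.37 in heterozygous pools. Horizontal cell markers had 6 of 12 higher and 1 lower at that age (8.13 to 8.14 in mutant pools, against 7.94 to 7.99 in heterozygous pools). Amacrine cell markers had 5 of 14 higher and 4 lower (9.23 to 9.25 in mutant pools, against 9.17 to 9.20 in heterozygous pools). The amacrine list shares slc32a1, gad1b, gad2 and slc6a9 with the list of inhibitory transmission, so the fall of gad2 counts in both. Muller glia markers had 3 of 10 lower and 0 higher at 7 dpf, with list means of 8.65 to 8.69 in mutant pools, against 8.91 to 8.94 in heterozygous pools. At 28 dpf 3 of these 10 were higher and 1 lower (9.06 to 9.10 in mutant pools, against 9.06 to 9.08 in heterozygous pools). At 7 dpf 1 ganglion cell marker was higher and 1 lower, the same held for horizontal cells, and 1 amacrine marker was lower, numbers near those that the shares of all genes give. Of 15 cone markers 1 was higher and 5 lower in mutants at 7 dpf, and 6 were higher and 2 lower at 28 dpf. Of 11 rod markers 2 were higher and 4 lower at 7 dpf, and 2 were higher and 5 lower at 28 dpf. The rod counts at 28 dpf were near the shares of all genes, 21.8% higher and 39.0% lower. The amacrine markers ptf1a and npy and the ganglion cell marker nefma did not pass the filter. They are not in the counts but are in the list means, which run over all matched markers. The marker counts were not repeated after centring, and the part of cell composition in the receptor differences was not tested.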

How the data were processed

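The authors deposited 1 log2 intensity for each probe set and array, computed with Affymetrix Expression Console and RMA (per the submitters' processing notes, without versions). No genome build is stated. Probe sets were named through the platform's gene table: 20806 had 1 symbol, 855 several and 53551 none. All 28 receptor genes matched a RefSeq gene by Entrez identifier with the same symbol.

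All 12 arrays, grouped by title, entered 1 fit in limma 3.58.1 (R 4.3.3) with a mean per group, 8 residual degrees of freedom and eBayes with a trend. The Benjamini-Hochberg adjustment ran over 14002 genes, and a gene rose or fell at an adjusted p under 0.05. The fit was tested on simulated data. The number of arrays limits the precision. No batch was fitted, since neither scan dates nor slides were among the data used. Alternatives changed the filter, the scaling, the probe set per gene, the variance model, array weights, the arrays in the fit and a replicate block, and left out each array.

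The members and gene lists were chosen with earlier results of these data known. By rule, pool values are printed for receptor genes called at 7 dpf and the 12 with the greatest differences at 28 dpf, and up to 6 called genes of the inhibitory list are named per comparison. The gad genes and slc32a1, arhgef9a at 28 dpf, and the pool values of untested members, were added after their values were seen. No sequences are shown.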

Additional observations from a re-analysis of the deposited data

Results flagged for a closer look

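For 16 receptor genes the genotype difference at 28 dpf differed from that at 7 dpf by limma's interaction test (adjusted p under 0.05 over 14002 genes, log2 scale). The positive interactions were those of gabrr1 (1.38), gabrr2a (1.33), gabra4 (0.93), gabrd (0.74), glra4b (0.61), gabra6b (0.57), glra3 (0.53), gabrz (0.49), glrba (0.31), gabrb2a (0.31), gabra6a (0.27), gabbr1a (0.23) and gabbr2 (0.23). Those of gabrr3a (-0.49), gabrg1 (-0.37) and glrbb (-0.27) were negative. The 2 GABA-B interactions were near the threshold (adjusted p = 0.0451 for gabbr1a and 0.0473 for gabbr2) and were lost under 10 and 13 of 20 alternatives, among them no filter (adjusted p = 0.0554 and 0.0578). The interaction of gabrr3a was lost under 8 of 20 alternatives and that of glrbb under 4 of 20. No cause of any of these differences was tested.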

How the results depend on the processing

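Centring the arrays on their medians changed counts of receptor genes: 21 rose and 1 fell at 28 dpf (13 and 3 before), and the interaction was negative in 0 (3 before); it adds a constant to every gene's difference. The other counts of receptor genes stayed within 1.5 times under every alternative other than leaving out an array. Leaving out each array in turn gave, for the genotype comparison, 1 to 3 rises and 8 to 9 falls at 7 dpf and 11 to 13 rises and 2 to 4 falls at 28 dpf. It gave 11 to 13 positive and 1 to 3 negative interactions. By age it gave 10 to 12 rises and 5 to 6 falls in mutants, and 2 to 3 rises and 11 to 14 falls in heterozygotes. Of all genes these fits called 8.68% to 12.9% at 7 dpf, 55.4% to 58.1% at 28 dpf and 42.4% to 47.8% in the interaction. By age they called 58.7% to 62.1% of all genes in mutants and 36% to 37.7% in heterozygotes. The single rise at 7 dpf came without mutant replicate 3 or heterozygous replicate 2 or 3, and the single negative interaction without mutant replicate 1 at 7 dpf. No receptor gene's called difference turned its sign under an alternative. With array weights 2884 genes of all were called at 7 dpf, against 1743. The replicate block gave 3 rises and 8 falls at 7 dpf, 13 and 4 at 28 dpf and 12 and 3 interactions. With the block 12.9%, 61% and 47.1% of all genes were called in these comparisons. Whether the numbers pair the pools is not settled. Deviations of same-numbered pools correlated at -0.10 to 0.14 over all pairs of groups. Between mutant and heterozygous pools of the same age they correlated at -0.07, 0.06 and 0.12 at 7 dpf. At 28 dpf these correlations were 0.14, 0.09 and 0.10. Of 12 arrays 8 correlated best with their own number among the 3 pools of the other genotype at that age. Each correlation counts from both of its arrays, so the 12 are not independent, and the count was not tested against chance. Dim levels limit gabrr2b and glra4a, and slc6a5 and gad1a of the inhibitory list, for which sizes are not exact.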
